A study of Mus musculus with 115 samples.

Results

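Kainic acid (KA) cells without EGFP were divided by their content of Gad2, which encodes the GABA-synthesising enzyme GAD65. Of the 36 such cells that the authors kept after quality control, 11 held Gad2 at 10 CPM or more (CPM is the count scaled to a library of 1000000 counts) and 25 did not. All 36 came from Rbp4-Cre mice in which the left hippocampus received KA together with a virus that expresses mCherry wherever Cre is present, and the right ventral hippocampus received a retrograde virus carrying EGFP. Rbp4-Cre acts in granule cells here, cells were sampled whether or not they carried mCherry, and an EGFP- cell had not been labelled from the opposite side. After 2 weeks the cytosol of single cells taken for dentate granule cells was drawn into a patch pipette and sequenced, so that each library is 1 cell. The cells used beside them were 27 KA EGFP+ cells, 27 EGFP- cells of mice given saline in place of KA, and 5 saline EGFP+ cells, 95 cells in all. Ages of the mice were not given.

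The study states 3 mice for the KA EGFP- cells, and no label ties a cell to a mouse. A class of cells was therefore treated as 1 sample, and no p-value was computed. Differences are given as the mean of log2(CPM + 1) over the Gad2 cells minus that over the other cells, and a gene was said to be carried by a cell at 10 CPM or more. Cell titles fall into a first series with low numbers and a second with high numbers, and the labels do not say what the series are. Gad2 was carried by 4 of 21 KA EGFP- cells in the first series and by 7 of 15 in the second. Since the second series also detected fewer genes per cell, pooled differences are followed by the differences within the first and then the second series where a result turns on them.

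Granule cells are the principal neurons of the dentate gyrus. They release glutamate, which the vesicular transporter Slc17a7 (VGLUT1) loads into vesicles. Their usual markers are the transcription factor Prox1 and, in mature cells, calbindin (Calb1). Neither marker is treated here as exclusive to granule cells. GABAergic interneurons make GABA with the enzymes encoded by Gad1 (GAD67) and Gad2, load it with Slc32a1 (VGAT), and descend from progenitors that use transcription factors such as Dlx1, Dlx2 and Lhx6. Granule cells are themselves known to contain GAD67, and to contain more of it after seizures.

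The KA EGFP- cells with Gad2 were chosen by that value, which is therefore a description. Gad2 (chromosome 2, 22622205 to 22693874, GRCm38) lay between 128.6 and 2472 CPM in the 11 cells, with a median of 462.2 CPM. Of the other 25 cells, 22 had no Gad2 count and 3 had 2.68, 3.06 and 4.92 CPM, from 14 to 48 counts. No cell lay between 4.92 and 128.6 CPM, so that a threshold of 50 CPM gave the same classes.

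Several libraries stood apart before any comparison was made. KA EGFP- cell 28, without Gad2, carried none of 18 granule cell genes and none of 15 glutamatergic genes, had counts for 1469 genes, and had 4.71% of its counts in 16 microglial genes. It is 1 of the 8 second-series cells without Gad2, so the differences given within that series include it. Only the Gad1 difference, pooled, is also given without it. The markers of cell 28 go against its being taken for a granule cell, which its labels do not state. KA EGFP- cell 23, with Gad2, had 5.58% of its counts in the microglial genes. Microglial genes made up 0.1% or more of the counts in 3 of the 11 Gad2 cells and in 3 of the other 25. The authors' quality labels disagree with their own quality-passed table: 1 of the 11 and 5 of the 25 have a label of failure. When cells are sorted by title, a failed label sits directly ahead of all 20 cells missing from the table and of 0 of the 95 in it, as if these labels were moved by 1 title. The treatment and EGFP labels as given put 36 KA EGFP-, 27 KA EGFP+ and 5 saline EGFP+ cells in the table, the numbers the study states, whereas the labels of the preceding titles would put 32, 29 and 4. With those, 5 of the 11 and 4 of the 25 cells would belong to another group. Total counts ran from 1819390 to 12612968 in the Gad2 cells and from 1747042 to 56183007 in the others. Genes with a count numbered 4686 (median) in the Gad2 cells and 6087 in the others, which within the first series was 6908.5 against 6974 and within the second 3707 against 3690.5.

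**Figure D1:**
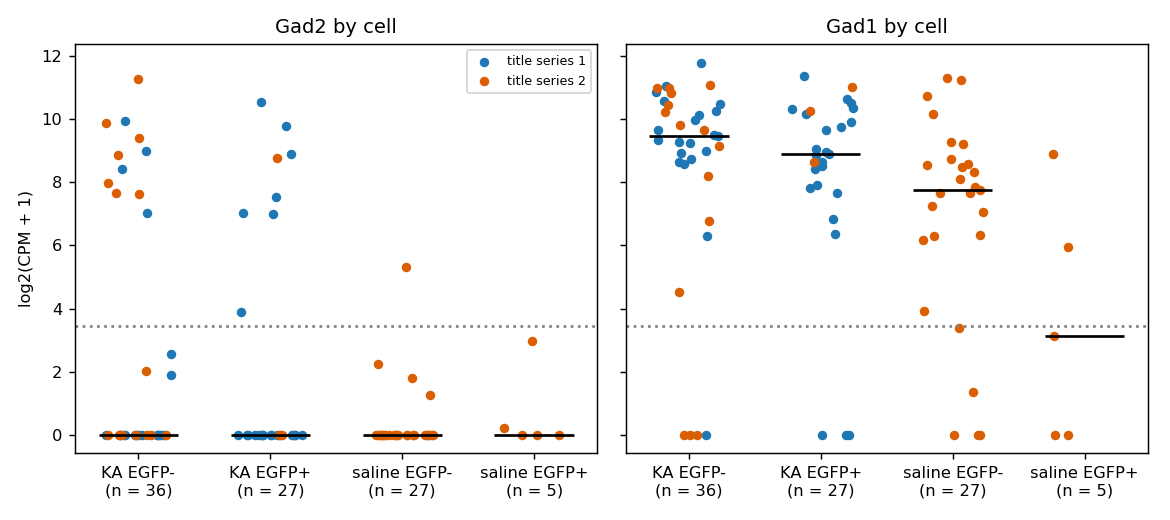
Gad2 (left) and Gad1 (right) in each cell as log2(CPM + 1), by treatment and EGFP class. Each point is 1 cell, coloured by title series, bars are medians and the dotted line is 10 CPM. Gad2 passes the line in 11 of 36 KA EGFP- cells, 8 of 27 KA EGFP+ cells, 1 of 27 saline EGFP- cells and 0 of 5 saline EGFP+ cells.

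The second GABA-synthesis gene did not follow the same division. Gad1 (chromosome 2, 70553072 to 70602014) was carried by all 11 Gad2 cells, at 108.6 CPM in the lowest, 1400 CPM at the median and 3558 CPM in the highest. It was also carried by 21 of the 25 other cells, with a median of 610.2 CPM and a highest value of 2142 CPM. The classes overlapped widely, and Gad1 without Gad2 was the commonest state among KA EGFP- cells. The mean log2 level was 10.04 (SD 1.36, n = 11 cells) with Gad2 and 7.77 (SD 3.73, n = 25 cells) without, a difference of 2.27. Within the first series the difference was 1.32 and within the second 4.56, where 3 of 8 cells without Gad2 had no Gad1 count. Without KA EGFP- cell 28 it was 1.95. Outside the KA EGFP- cells, Gad1 was carried by 22 of 27 saline EGFP- cells, 24 of 27 KA EGFP+ cells and 2 of 5 saline EGFP+ cells. Among KA EGFP+ cells it was carried by 7 of 8 with Gad2 and by 17 of 19 without. The mean log2 levels there were 8.02 and 8.23, a difference of -0.21, so Gad1 was not higher with Gad2 in that group.

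The vesicular step of GABA release was not found. Slc32a1 (chromosome 2, 158610767 to 158615748), the transporter that loads GABA into vesicles, had no count in any of the 36 cells. Summed over the 11 Gad2 cells there was no Slc32a1 count among 64127019, and 3 counts of that total would be 0.0468 CPM. In terms of cells, 0 of 11 allows a share of up to 27.3% (3 cells of 11). None of the 95 cells carried Slc32a1 and 7 had any count of it, the highest at 4.27 CPM, so the series holds no cell that shows how an Slc32a1-rich library would look. Of 8 genes of GABA synthesis, packaging and uptake, 4 could be compared, meaning that at least 5 of the 36 cells carried them. Gad1, Slc38a1 (a glutamine transporter, 0.98 higher, with 3.70 and 0.81 by series) and Abat (GABA transaminase, 0.85 higher, with 2.45 and 1.41) were higher in Gad2 cells. Aldh5a1 (succinate semialdehyde dehydrogenase) had a difference of -0.49 pooled that turned between the series, at -0.54 and 0.55. Gad1 was the 1 member higher by 2 or more, beside 1.32% of all 9481 measured genes. The median of the 4 was 0.91, beside -0.36 over all measured genes, and ran from 0.41 to 1.22 when single Gad2 cells were left out.

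Few transcription factors of GABAergic neurons were found in the Gad2 cells. Of 16 such factors in the table, 12 had no count in any Gad2 cell, among them Dlx1, Dlx2, Dlx5, Dlx6, Lhx6, Sox6, Nkx2-1, Npas1, Sp8, Sp9 and Maf. No Gad2 cell carried more than 1 of the 16, and other KA EGFP- cells carried between 0 and 2. Satb1, Nr2f2 and Adarb2 were the 3 factors that could be compared, with pooled differences of -0.65, -1.29 and -0.58, where 63.4% of all measured genes were lower. Within the series they were -0.42 and -0.26 for Satb1, -1.21 and -0.86 for Nr2f2, and -0.12 and 0.00 for Adarb2. The median of the 3 ran from -1.20 to -0.55 without single Gad2 cells.

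Markers of interneuron subclasses were mostly missing, with Npy, Cck and Kcnc1 as the main exceptions. Somatostatin (Sst), vasoactive intestinal peptide (Vip), Ndnf, Htr3a, Chodl, Cort, Nxph1 and Elfn1 had no count in any of the 36 cells, and parvalbumin (Pvalb) was carried by 1 cell, which lacked Gad2. Of 25 subclass markers, 20 were carried by no Gad2 cell. The 5 that could be compared were Npy, Cck, Cnr1, Kit and Kcnc1. Cholecystokinin (Cck), also a peptide of granule and mossy cells, was carried by 6 of 11 Gad2 cells and 9 of 25 others. Cnr1, the cannabinoid receptor of one interneuron class, was carried by 0 of 11 and 6 of 25. The median difference of the 5 was -0.67, with 0.81 and 0.00 within the 2 series, beside 0.11 and 0.16 over all measured genes. Its direction depended on the filter: over genes carried by at least 9 of the 36 cells it was 1.19. Without single Gad2 cells it ran from -1.17 to -0.62.

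Of 15 glutamatergic genes, Slc17a7 and Arpp21 were carried by every Gad2 cell, and 4 were carried by none. Slc17a7 (chromosome 7, 45163949 to 45176142) was carried by all 11 Gad2 cells, at 38.5 CPM in the lowest, 544.8 CPM at the median and 1224 CPM in the highest. It was carried by 23 of 25 other cells, with a median of 718.8 CPM. The 2 cells without it were KA EGFP- cells 28 and 38. The lowest Slc17a7 value among the Gad2 cells belonged to cell 23, the one with 5.58% microglial counts. Mean log2 levels were 8.56 (SD 1.70) with Gad2 and 8.54 (SD 2.90) without, a difference of 0.02 with -0.11 and 1.81 in the first and second series. Every Gad2 cell thus carried Gad1 and Slc17a7 together. Without the cells labelled as failed or with 0.1% or more microglial counts, 7 Gad2 cells were left. All 7 carried both, which follows from the 11 and is no separate check.

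The rest of the glutamatergic list varied by gene. Of 15 genes, 10 could be compared: 4 were higher in Gad2 cells and 6 lower, beside 63.4% lower over all measured genes. None of the 10 differed by 2 or more. Arpp21, a phosphoprotein abundant in forebrain projection neurons, was carried by 11 of 11 and 24 of 25 cells. Neurod2, a transcription factor of excitatory neurons, was carried by 5 of 11 and 20 of 25, with a difference of -1.48 pooled, -1.15 in the first series and -1.13 in the second. The median over the 10 genes was -0.47, and within the series it was 0.03 and 0.05. It ran from -0.69 to -0.18 without single Gad2 cells. Gad2 cells carried between 3 and 10 of the 15 genes (median 7) and the others between 0 and 10 (median 8).

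**Figure D2:**
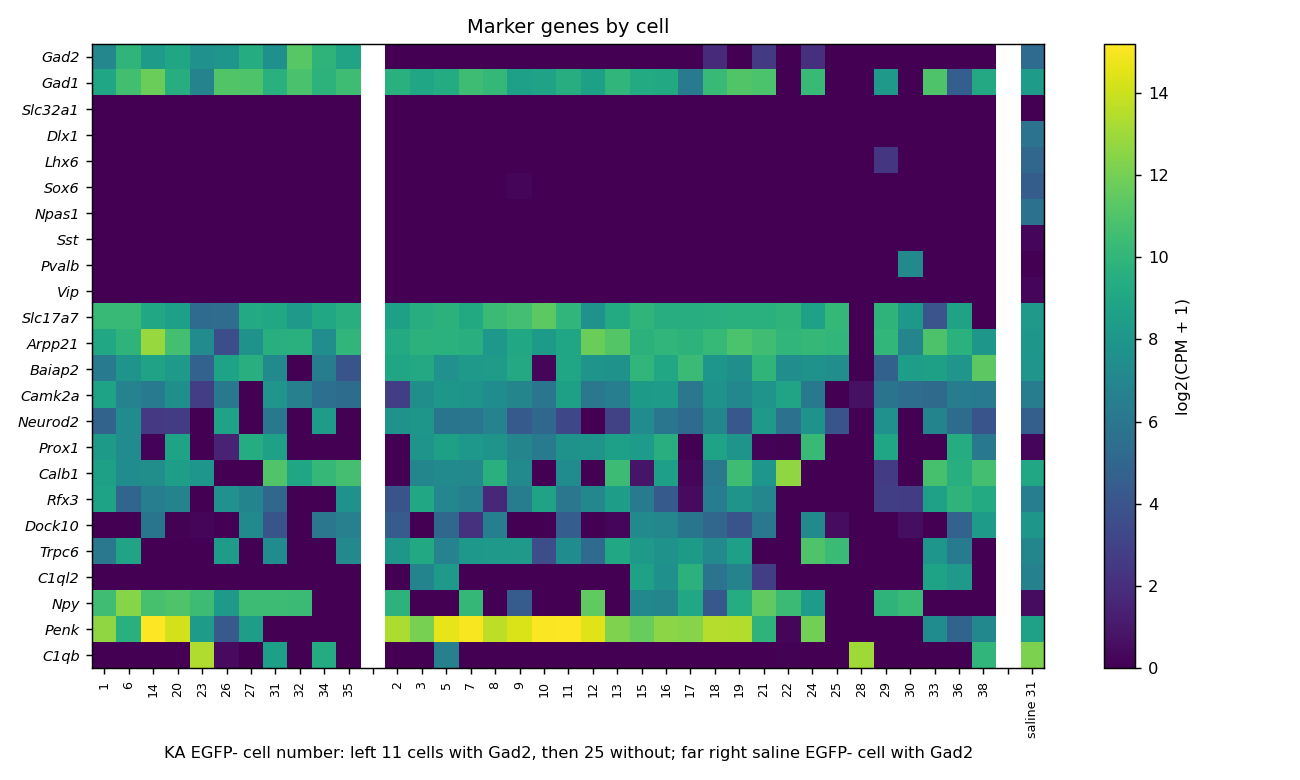
Marker genes (rows) in each KA EGFP- cell (columns, numbered as in the text) as log2(CPM + 1). The left block holds the 11 cells with Gad2, the middle block the 25 without, and the column at the far right the saline EGFP- cell with Gad2. Slc17a7 is present across the left block, the rows from Slc32a1 to Vip are near 0 there, and Dlx1, Lhx6, Sox6 and Npas1 are present in the saline cell.

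Granule cell genes were found in every Gad2 cell but unevenly. Each of the 11 carried at least 1 of Prox1, Calb1, Rfx3, Trpc6 and Dock10, and 10 of 11 carried Prox1 or Calb1, as did 20 of 25 other cells. Prox1 (chromosome 1, 190118035 to 190170714) lay between 0 and 690.5 CPM in the Gad2 cells, with a median of 1.74 CPM, and between 0 and 1270 CPM in the others, with a median of 227.5 CPM. It was carried by 5 of 11 Gad2 cells and by 17 of 25 others, and the ranges overlapped over nearly their whole length. In the first series 3 of 4 Gad2 cells and 13 of 17 others carried it, and in the second 2 of 7 and 4 of 8. The difference was -1.57 pooled, -0.02 in the first series and -1.56 in the second. Pooled over cells, Prox1 counts were 247.9 CPM with Gad2 (exact Poisson 95% interval 244.01 to 251.74, counting error only) and 241.5 CPM without (239.4 to 243.6). These pooled values weight each cell by its total counts, so they do not show equal Prox1 per cell. Cell 11 alone gave 56183007 of the 206623145 counts without Gad2. An antisense transcript, Prox1os, overlaps Prox1, and libraries without strand cannot separate them.

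Calb1 (chromosome 4, 15881264 to 15908064), the calcium buffer of mature granule cells that some interneurons also contain, was the granule cell gene with the largest positive difference. It was carried by 9 of 11 Gad2 cells (median 352.8 CPM, highest 2187 CPM) and by 15 of 25 others (median 143.6 CPM, highest 6461 CPM). The mean was 1.89 higher with Gad2, with 1.94 and 2.78 within the series, and the single highest cell was one without Gad2. Saline EGFP- cells carried Calb1 in 25 of 27. Without cells labelled as failed or rich in microglial counts, 5 of 7 Gad2 cells and 11 of 18 others carried it.

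C1ql2, a synaptic organiser secreted at mossy fibre terminals, was missing from the Gad2 cells altogether. None of the 11 had a single count, against 9 of 25 other cells that carried it, up to 881.2 CPM, and 23 of 27 saline EGFP- cells. By series the counts were 0 of 4 against 7 of 17, and 0 of 7 against 2 of 8. In KA EGFP+ cells C1ql2 was carried by 4 of 8 cells with Gad2 and by 8 of 19 without, so the absence was not shared there. Trpc6, a cation channel, had a difference of -2.53, with -2.96 and -1.17 by series (5 of 11 against 19 of 25 cells). In KA EGFP+ cells Trpc6 went the other way, carried by 8 of 8 cells with Gad2 and 11 of 19 without.

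Of 18 granule cell genes, 14 could be compared. In the pooled values 2 were higher in Gad2 cells (Calb1 and Ahcyl2) and 12 lower, beside 63.4% lower over all measured genes. There were 3 lower by 2 or more, C1ql2 and Trpc6 among them, beside 5.1% of all measured genes. Of the 12, C1ql3, Rfx3 and Glis3 were higher within the first series, at 0.45, 1.02 and 0.16. Dock10 and Sema5a were higher within the second, at 0.77 and 0.46, where Ahcyl2 was lower at -0.03. The list's median difference was -1.10, beside -0.36 over all measured genes. Within the first series it was -0.38 beside 0.11, and within the second -0.23 beside 0.16. In KA EGFP+ cells the list's median went the other way, at 0.91 beside 0.56 over all measured genes. Cells with Gad2 there carried a median of 10.5 granule cell genes, and those without carried 8. The median number of genes with a count also differed there, at 7915 and 5648. The 4 genes that could not be compared were Plk5, Dsp, Tdo2 and Lct, which were carried by 0, 0, 0 and 1 of 11 Gad2 cells, by 1, 0, 0 and 0 of 25 others, and by 12, 6, 5 and 9 of 27 saline EGFP- cells. Per cell, Gad2 cells carried 1 to 10 granule cell genes (median 6), the others 0 to 13 (median 8), and saline EGFP- cells 1 to 16 (median 12). Within the first series the medians were 8 with and 9 without Gad2, and within the second both were 4.

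**Figure D3:**
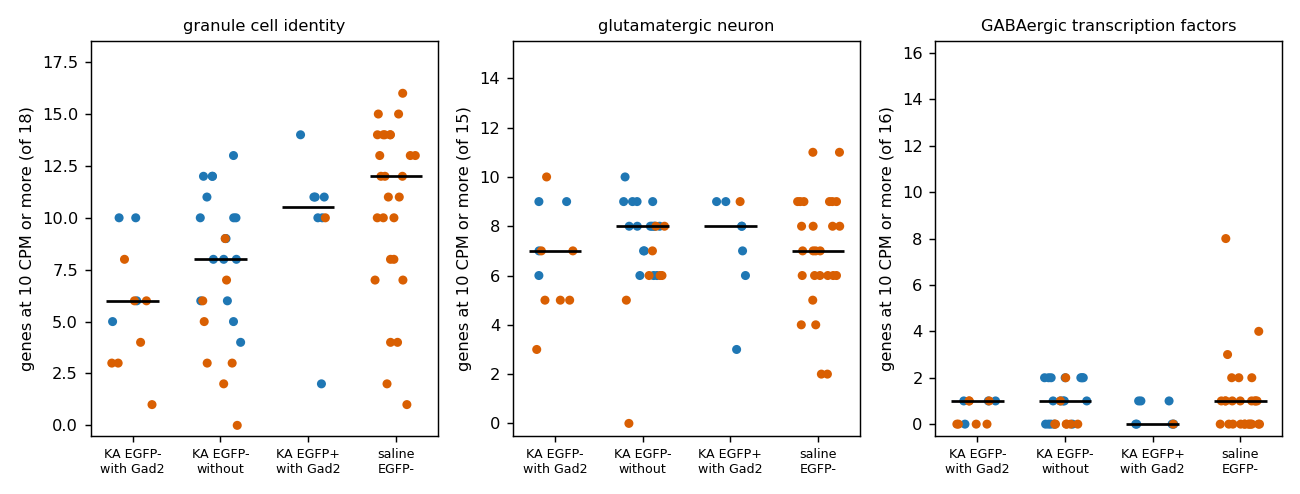
Number of granule cell genes (of 18), glutamatergic genes (of 15) and GABAergic transcription factors (of 16) at 10 CPM or more in each cell, by class, with bars at the medians and colours for title series (blue first, orange second). Medians for KA EGFP- cells with and without Gad2 are 6 and 8 granule cell genes. No Gad2 cell exceeds 1 GABAergic factor, whereas 1 saline EGFP- cell reaches 8.

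Lists for other cell types gave no set of markers present throughout the Gad2 cells. The granule cell list gave none either. Calb1, at 9 of 11, was its most widely carried member, and 5 of its 18 genes were carried by no Gad2 cell. Of 7 mossy cell genes, 4 were carried by no Gad2 cell, and 3 could be compared, 1 higher and 2 lower. Calb2 and Drd2, which mark these hilar neurons, were carried by no cell of either class. The higher gene, Ociad2, was carried by 5 of 11 and 10 of 25 cells. Its difference was 0.17 pooled, with 2.85 and 0.56 by series. Of 8 CA3 genes, 4 were carried by no Gad2 cell, 4 could be compared, and 2 of the 4, Grik4 and Socs2, were lower by 2 or more, beside 5.1% of all measured genes. Grik4 had -2.34 pooled, with -1.08 and -2.69 by series, and Socs2 had -2.19, with -3.16 and -0.12, and no count in Gad2 cells. The CA3 genes Bok and Nnat were each carried by 5 of 11 Gad2 cells, and by 15 and 11 of 25 others. Bok had -1.33 pooled, with -2.12 and 0.16 by series, and Nnat had 0.27, with 3.25 and -1.42. Of 7 CA1 genes, 5 were carried by no Gad2 cell. Wfs1 was the 1 that could be compared, carried by 4 of 11 and 4 of 25 cells. It was 1.19 higher pooled, with 3.53 and 0.76 by series. None of 6 Cajal-Retzius genes was carried. Of 11 genes of immature neurons, 6 could be compared and all 6 were lower, beside 63.4% of all measured genes, with a median of -0.97 pooled and -0.06 and -0.43 within the series. Dcx, the usual marker of newborn granule cells, was carried by 1 of 11 and 2 of 25 cells. Sox11 and Tubb3 of the same list were carried by 7 and 6 of 11 Gad2 cells, and by 16 and 18 of 25 others. Oligodendrocyte, precursor and vascular genes together gave 3 genes that could be compared, Mbp, Lhfpl3 and Pdgfrb. They were carried by 7, 3 and 2 of 11 Gad2 cells and by 16, 14 and 3 of 25 others. Astrocyte genes reached at most 0.0531% of the counts in a Gad2 cell and 0.114% in another cell.

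Npy, which encodes neuropeptide Y, had the largest difference of the peptides on the lists. Granule cells are known to make it after seizures, and some interneurons make it at rest. Npy (chromosome 6, 49822710 to 49829507) was carried by 9 of 11 Gad2 cells, with a median of 1351 CPM and a highest value of 5479 CPM, and by 14 of 25 others, with a median of 20.1 CPM and a highest value of 2847 CPM. All 4 Gad2 cells of the first series held between 1496 and 5479 CPM, where the 17 others ranged from 0 to 2847 with a median of 117.1 CPM. In the second series 5 of 7 Gad2 cells and 3 of 8 others carried it. The mean was 3.69 higher with Gad2, with 5.64 and 3.56 within the series and 3.31 to 4.55 when single Gad2 cells were left out. Saline EGFP- cells carried Npy in 1 of 27. In KA EGFP+ cells, which the division did not use, Npy was carried by 8 of 8 cells with Gad2 (34.8 to 5482 CPM) and by 8 of 19 without, a difference of 5.35.

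Other secreted factors were divided in the pooled values. Of 20 seizure-regulated peptides and factors, 16 could be compared, 8 higher and 8 lower, with a median of -0.25 pooled, beside -0.36 over all measured genes. Within the series it was 0.66 and 0.57, beside 0.11 and 0.16. Penk, the enkephalin precursor, was the 1 member lower by 2 or more at -3.19. Within the series the differences were 0.35 and -0.90. Penk was lower in the second series in both classes: its medians were 0 CPM with and 14.6 CPM without Gad2 there, and 12716 and 11307 CPM in the first series. Bdnf, the neurotrophin, was carried by 11 of 11 and 22 of 25 cells and was 1.26 higher, with 0.77 and 3.52 within the series. Vgf, a neurosecretory protein, was 1.66 higher, with 0.97 and 3.38 by series, and was carried by 11 of 11 and 21 of 25 cells. Scg2, a granin, was 0.65 higher, with 0.88 and 2.09. In KA EGFP+ cells the differences of Bdnf, Vgf and Scg2 were 0.81, 1.64 and 1.07.

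Among 18 immediate early genes, all could be compared, and 16 were lower in Gad2 cells, beside 63.4% of all measured genes. Their median was -0.90 pooled, beside -0.36, and -0.36 and -0.25 within the series, beside 0.11 and 0.16. The differences were -3.37 for Btg2, -2.55 for Nr4a2 and -2.45 for Ier2, the 3 lower by 2 or more, beside 5.1% of all measured genes. By series they were -2.86 and -2.12, -2.12 and -2.53, and -1.79 and -1.88. Junb and Nr4a3 were the 2 higher genes. Junb, a subunit of the AP-1 factor, was carried by 11 of 11 and 21 of 25 cells, and was 1.77 higher with 0.47 and 4.40 within the series. Of 15 GABA receptor genes, 13 could be compared, 3 higher and 10 lower, beside 63.4% lower over all measured genes, with a median of -0.72 pooled and -0.05 and 0.05 within the series. Gphn, the scaffold gephyrin of inhibitory synapses, was the 1 lower by 2 or more (-2.45 pooled, -3.50 and -0.50 by series, and carried by 3 of 11 against 14 of 25 cells). Of 12 matrix and perineuronal net genes, 9 could be compared, 4 higher and 5 lower, with a median of -0.02.

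Across all 9481 measured genes other than Gad2, 125 (1.32%) were higher and 484 (5.1%) lower by 2 or more in the Gad2 cells. Of these, 119 and 389 had the same sign in both title series. The pooled balance leaned to lower values, with 63.4% of genes lower and a median of -0.36. Within the series the medians were 0.11 and 0.16, so the lean was present only in the pooled values, where 7 of 11 Gad2 cells and 8 of 25 others came from the second series. Counts within a single series were larger, with 970 genes higher and 740 lower by 2 or more in the first series (4 against 17 cells). Leaving out 1 Gad2 cell moved a count by over 1.5 times in 3 cases: 778 genes were lower without cell 1, 746 were lower without cell 6, and 189 were higher without cell 32.

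**Figure D4:**
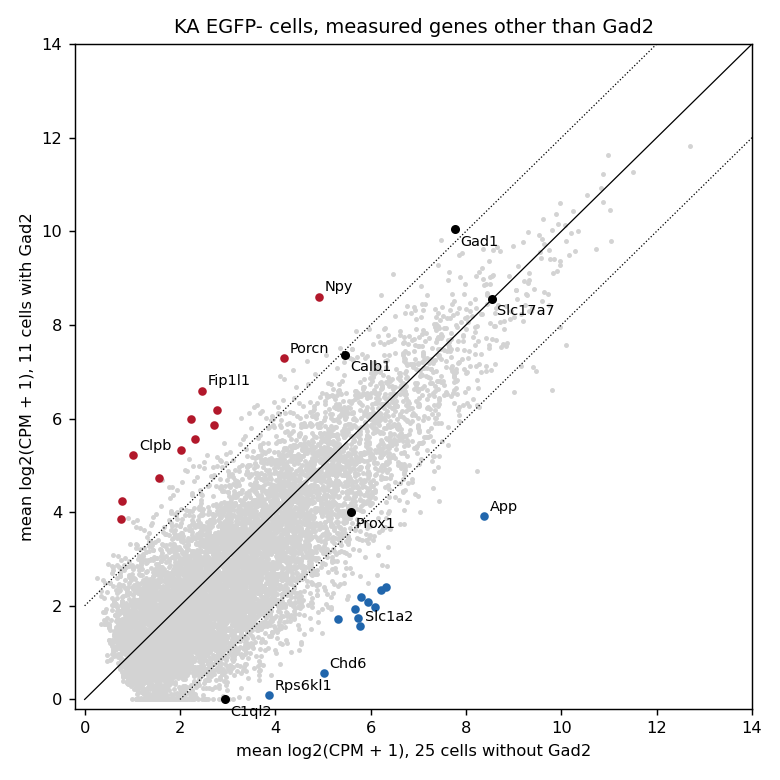
Mean log2(CPM + 1) of each measured gene in the 11 cells with Gad2 (vertical) and the 25 without (horizontal). Red and blue points are the 12 named genes with the largest positive and negative differences, black points are marker genes, the solid line is equality and dotted lines are differences of 2. Gad1 lies above the upper dotted line, Slc17a7 on the line of equality, and C1ql2 at 0 in the Gad2 cells.

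The 12 genes with the largest positive difference that held in both series were Clpb, Fip1l1, Klhdc4, Npy, Wrap53, Snx5, Tmem60, Fam69a, Nfatc2, Sec11a, Porcn and Mtmr14. Npy is the only one of them on any list of interneuron or granule cell genes used here. Clpb, a mitochondrial chaperone, was carried by 7 of 11 Gad2 cells and 4 of 25 others, and was 4.20 higher. Fip1l1, a subunit of the polyadenylation machinery, was carried by 9 of 11 and 10 of 25, and was 4.12 higher. Porcn, an acyltransferase needed for Wnt secretion, was carried by 10 of 11 and 14 of 25, and was 3.10 higher. Snx5, a sorting nexin of endosomes, was carried by 8 of 11 and 10 of 25, and was 3.42 higher. No one of these genes separated the classes without overlap.

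The 12 with the largest negative difference were App, Chd6, Slc1a2, Pcdh17, Zbtb18, Prpf38b, Rae1, Ddx39, Rps6kl1, Nos1ap, Actl6b and Slc38a2. App, the amyloid precursor protein, was carried by 5 of 11 Gad2 cells (median 1.26 CPM, highest 897.4 CPM) and by 24 of 25 others (median 503.2 CPM). Its difference was -4.47, with -1.81 in the first series and -5.35 in the second. Chd6, a chromatin remodeller, was carried by 0 of 11 and 17 of 25 cells, with a difference of -4.47 pooled and -3.93 and -4.79 by series. Slc1a2, the glutamate transporter of astrocytes that some excitatory neurons also transcribe, was carried by 3 of 11 and 20 of 25, at a median of 86.6 CPM in the others, with a difference of -4.21 pooled and -4.196 and -3.00 by series. Zbtb18, a repressor in developing excitatory neurons, was carried by 2 of 11 and 18 of 25, with a difference of -4.00 pooled and -1.09 and -6.60 by series. Actl6b, a neuronal subunit of chromatin remodelling complexes, was carried by 3 of 11 and 20 of 25. Another gene overlaps exons of 5 of the 12 higher and 5 of the 12 lower genes, among them Fip1l1, Snx5, App, Slc1a2 and Zbtb18, and reads of overlapping genes could be shared.

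The same division of the KA EGFP+ cells, 8 with and 19 without Gad2, used other cells, though whether the mice were others is not given. Microglial genes made up 0.1% or more of the counts in 5 of the 8 and in 5 of the 19, the median number of genes with a count was 7915 and 5648, and the part of either in the values below was not tested. Of the 12 named higher genes, 10 were also higher there, where 69.1% of all measured genes were higher. Npy (5.35), Snx5 (3.19) and Porcn (2.56) had differences above 2, while Clpb (0.03) and Fip1l1 (0.26) were close to 0. Of the 12 named lower genes, 5 were lower there, beside 30.8% of all measured genes. Rps6kl1 (-2.52) and Chd6 (-2.16) were lower by 2 or more, whereas App was 0.49 higher and Slc1a2 0.23 higher.

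**Figure D5:**
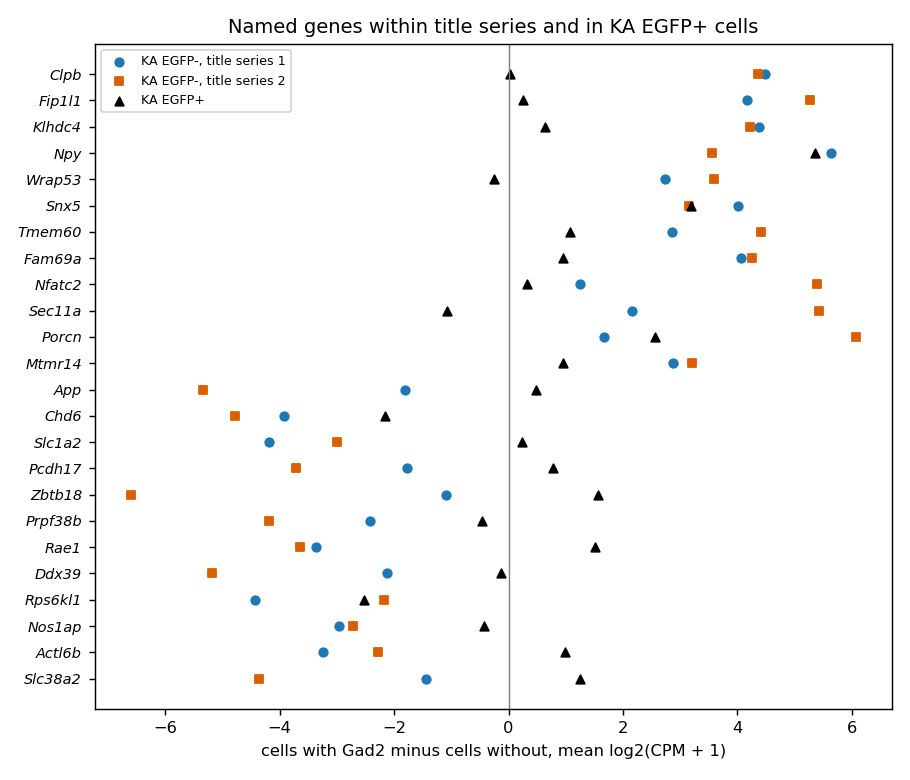
Difference in mean log2(CPM + 1), cells with Gad2 minus cells without, for the 24 named genes. Circles are KA EGFP- cells of the first title series, squares those of the second, and triangles KA EGFP+ cells, with both series pooled. Circles and squares share a side because the genes were chosen so, whereas triangles for most genes lie nearer 0. Those of Npy, Snx5, Porcn and Rps6kl1 lie between the circle and the square.

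Whole profiles did not set the Gad2 cells apart. Over the measured genes, Pearson's r between 2 Gad2 cells of the first series had a median of 0.353 (6 pairs), between a Gad2 cell and another cell 0.337 (68 pairs), and between 2 cells without Gad2 0.330 (136 pairs). In the second series the medians were 0.182 (21 pairs), 0.186 (56 pairs) and 0.179 (28 pairs). These values share depth and detection within a series and are descriptions. The most similar cell of the same series carried Gad2 for 0 of 4 Gad2 cells in the first series and for 4 of 7 in the second. Among all KA EGFP- cells, 4 of 21 in the first series and 7 of 15 in the second carried Gad2. No expected number was computed.

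Gad2 was carried by 8 of 27 KA EGFP+ cells, or 29.6% (exact Clopper-Pearson 95% interval 13.8 to 50.2%), and by 11 of 36 KA EGFP- cells, or 30.6% (16.3 to 48.1%). It was carried by 1 of 27 saline EGFP- cells, or 3.70% (0.0937 to 18.97%), and by 0 of 5 saline EGFP+ cells, which allows up to 60.0% as 3 cells of 5, or 52.2% as the exact upper bound. The intervals treat cells as independent, which cells of a few mice need not be, and those of the saline EGFP- and KA EGFP+ cells overlap. All saline cells are of the second series, in which 7 of 15 KA EGFP- cells carried Gad2. The 8 KA EGFP+ cells with Gad2 all carried Slc17a7, 7 of 8 carried Prox1, 7 of 8 carried Gad1, and none carried Slc32a1. They carried between 2 and 14 granule cell genes, with a median of 10.5.

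The single saline EGFP- cell with Gad2, cell 31 of its group, had a different set of genes. It held Gad2 at 38.9 CPM and Gad1 at 319.1 CPM, and it carried 8 of 16 GABAergic transcription factors. Dlx1 stood at 53.4 CPM, Npas1 at 52.8, Satb1 at 32.7, Lhx6 at 31.3, Sox6 at 20.9 and Adarb2 at 15.7 CPM. Another of the 8, Maf (23.1 CPM), is also a microglial gene, and 2.55% of the cell's counts were in the microglial list. It also held Slc17a7 at 298.2 CPM and Calb1 at 542.7 CPM, 14 granule cell genes, and no count of Slc32a1. Prox1 had 1 count and Npy 2. Dlx1, Lhx6, Sox6 and Npas1 were each absent from all 11 KA EGFP- cells with Gad2, and this saline cell was the 1 in which such factors were found beside Gad2.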

How the data were processed

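Cytosol of single dentate gyrus cells was sequenced after Nextera XT preparation, per the labels, with no molecular identifiers or strand stated. The submitters' processing notes name build GRCm38 and the tools kallisto, featureCounts, STAR and Trimmomatic. Their roles and versions are not given in the sources used here. The authors deposited read counts per gene symbol. The authors also deposited a normalized signal, which is the count times 1 factor per cell, and its computation is not given.

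The quality-passed table (95 cells, 22870 genes) was used. The 92 spike-in rows held 6 counts and were left out. CPM came from the remaining counts, and levels are log2(CPM + 1). A gene was measured with 10 CPM or more in at least 5 of the 36 cells, and called at a difference of 2 or more. Cells of unnamed mice are no replicates, so no test across genes was run. Named genes were the members of the main lists that results turn on, and the 12 largest differences in each direction with the same sign in both title series and after thinning every cell to 1000000 counts (seed 7). The division by Gad2 and the 19 gene lists were chosen with earlier results of these data known. Coordinates and exon overlaps are from GENCODE M21 (GRCm38). KA EGFP- cells are numbered in accession order. Totals of 1747042 to 56183007 counts per cell make 10 CPM 17.5 counts in the shallowest cell. Reads are not independent molecules, so intervals cover counting error only. Computations used Python 3.11.15, pandas 2.3.3, numpy 2.4.6 and scipy 1.17.1, and were tested on simulated data. Some members of the lists are counted in them but not reported here by name.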

Additional observations from a re-analysis of the deposited data

Results flagged for a closer look

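In the group of 5 saline EGFP+ cells, 1 cell lay far from the other 4 in Gad2, at a log2(CPM + 1) of 2.97, and 1 cell lay far from the others in Prox1, at 8.85. Gad2 in that cell is 6.84 CPM, below the 10 CPM used to call a cell a carrier. Chance flags about 1 in 20 groups in this way, and neither value enters the comparison of KA EGFP- cells.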

How the results depend on the processing

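The share of measured genes past a difference of 2, at 1.32% higher and 5.1% lower, depended on the setting. It was 3.51% higher and 13.6% lower with the authors' normalized signal, 0.0844% and 0.274% with CPM + 10, and 10.2% and 7.81% in the first title series alone. The second series alone gave 12.7% higher, and leaving out microglia-rich cells 2.38% higher. Leaving out single Gad2 cells gave 1.20 to 1.99% higher and 4.50 to 8.21% lower. The Gad1 difference was 4.56 in the second series alone, and the interneuron subclass median was 1.19 with genes at 10 CPM in at least 9 cells. At 1 CPM, Gad2 was found in 4 saline EGFP- cells and 1 saline EGFP+ cell, and at 50 CPM in 0 saline EGFP- cells. The cause of these changes was not tested. Because no cell can be tied to 1 of the 3 mice, differences between mice cannot be told apart from those between cells. Alternatives without KA EGFP- cell 28, and marker counts without doubtful cells, were chosen after seeing the data. No paired analysis was possible because cell numbers follow accession order and tie no cell to a mouse.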
